A study of Mus musculus with 4 samples.

Results

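The Zfp genes are mouse zinc finger genes whose symbol is Zfp followed by a number, such as Zfp738 or Zfp729a. They were taken from the gene names of every deposited peak list and table, leaving out Zfp36, whose product is a CCCH zinc finger protein that binds AU-rich messenger RNA. The rule found 297 of 13067 named genes, with 599 of 16709 m6A peaks in WT, 671 of 21031 in KO and 178 of 6050 in the table of peaks that differed between genotypes. The gene Zfp866 was listed only in the differential table, without a peak of its own in either peak list.

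The data come from m6A-seq, in which pieces of poly(A) RNA that an antibody to N6-methyladenosine pulls down (the IP library) are sequenced and set against the RNA before the pull-down (the input library). Macrophages were grown from C57BL/6 bone marrow in M-CSF for 7 days. Both genotypes carried floxed Mettl3 alleles (Mettl3fl/fl, here WT), and the KO cells also carried LysM-cre, a Cre driver active in myeloid cells. Mettl3 encodes the catalytic subunit of the m6A writer complex; its input level was not analysed here, so the labels could not be checked on the targeted transcript, and the sources used here do not say what share of cells had lost it. Each genotype had 1 IP and 1 input library, 4 in all, so no difference below has a replicate check and no test was run. Library depth is unknown, as read totals were not part of the files used; all intervals are 95% intervals that cover counting error or the spread among peaks, and they take peaks as independent.

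Most Zfp genes encode DNA-binding proteins with arrays of C2H2 zinc fingers, and many also carry a KRAB domain, which recruits the co-repressor Trim28 (KAP1) and the histone methyltransferase Setdb1 to silence target chromatin, often at transposable elements. The finger array of these genes is typically encoded by a single long last exon. m6A is laid down co-transcriptionally, is dense in long internal and last exons and around stop codons, and its reader proteins can shorten the life of a marked transcript.

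The writer complex prefers an adenosine within GGAC and related motifs, and peaks over a transcript start are the only ones for which sequence was at hand, as RefSeq windows of the same build (GRCm38, called mm10 in the files). In the WT list, Zfp peaks covered part of the first 50 transcribed bases in 64 windows, and GGAC lay within the covered bases in 14 of them (21.9%, exact interval 12.5 to 34). The share was 17.3% of 1710 windows in other genes. In KO it was 6 of 53 (11.3%, 4.27 to 23.0) against 18.1% of 1518. Among peaks that differed between genotypes it was 0 of 14 (0 to 23.2) against 17.4% of 471. Of all 32851 RefSeq windows, 18.9% held GGAC anywhere in those 50 bases. Only the transcribed strand was searched, a match is not a mapped site, and the Zfp intervals include the shares of the other genes in both genotypes. The sequences below are the 4 Zfp genes with a covered GGAC in both lists and 2 with a covered GGAC in WT alone, Zfp1 and Zfp651, whose long peaks of 29.8-fold and 20.4-fold reach from the start into later exons. They are written 5′ to 3′ on the transcribed strand with GGAC in capitals.
Zfp281, chr1:136624914-136624943, plus strand: ctggtccggtcgaGGACttcccggcagaca
Zfp784, chr7:5038416-5038445, minus strand: tctttgccctcagGGACcgggcttaggtac
Zfp668, chr7:127876818-127876836, minus strand: acGGACacgcttccggcgc
Zfp458, chr13:67268976-67268994, minus strand: agGGACtgtgcagggtggc
Zfp1, chr8:111643443-111643471, plus strand: tcacagctccgaGGACtctgggaacggcc
Zfp651, chr9:121760033-121760062, plus strand: agctgctcggccgGGACttgccgcggccct
The peak that covers the start of Zfp281, a regulator of the pluripotency network, spans 3052 exonic bases, so its fold is not that of the start; it had an enrichment of 12.3-fold in WT and 11.4-fold in KO. For the peaks over the starts of Zfp784 the folds were 5.95 and 7.56, for Zfp668 2.27 and 2.10, and for Zfp458 10.2 and 4.72.

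In the WT list Zfp genes had more peaks per gene and higher folds than other genes. The 599 WT peaks fell in 273 genes, 2.19 peaks a gene against 1.69 over the whole list. Of 393 RefSeq protein-coding genes that match the rule, 271 (69.0%) had a WT peak, against 35.1% of 21900 protein-coding genes, although gene symbols of the list that RefSeq does not use count as absent in both shares. Both shares also count genes that these cells may not express, as expression was not matched. The fold enrichment is the authors' ratio of IP over input for each peak and belongs to the whole peak; where a WT and a KO fold stand side by side below, they describe 2 lists called apart and are no measure of a difference, since folds of other genes were higher in WT too (median 3.66 against 3.10 in KO). Its median was 6.12 (5.23 to 6.63) for Zfp peaks and 3.66 for the peaks of other genes. Many folds recur at the same values, such as 6.12, 7.14 and 8.16, in Zfp and other peaks. The listed input levels of Zfp genes were low, as given below, and whether low input raised their folds was not tested. Zfp peaks were also longer, with a median of 570 exonic bases against 390. The share of peaks with a false discovery rate (FDR) under 0.05 was 70.8%, beside 70.2% of the list, so Zfp peaks were higher without passing this filter more often.

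The KO list gave the same order. It held 671 Zfp peaks in 280 genes, with a median fold of 4.72 (4.33 to 5.39) against 3.10 for other genes and a median length of 451 exonic bases against 330. Peaks with an FDR under 0.05 made up 61.7%, beside 64.9% of the list. In all, 257 Zfp genes had a peak in both genotypes, 16 in WT alone and 23 in KO alone. Of the genes seen in 1 genotype, 10 of the 16 and 6 of the 23 had a peak with an FDR under 0.05. Over all genes, 9875 had a WT peak and 11675 a KO peak. How many of those were seen in 1 genotype alone was not counted, so the Zfp counts are descriptions without a background share.

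**Figure D1:**
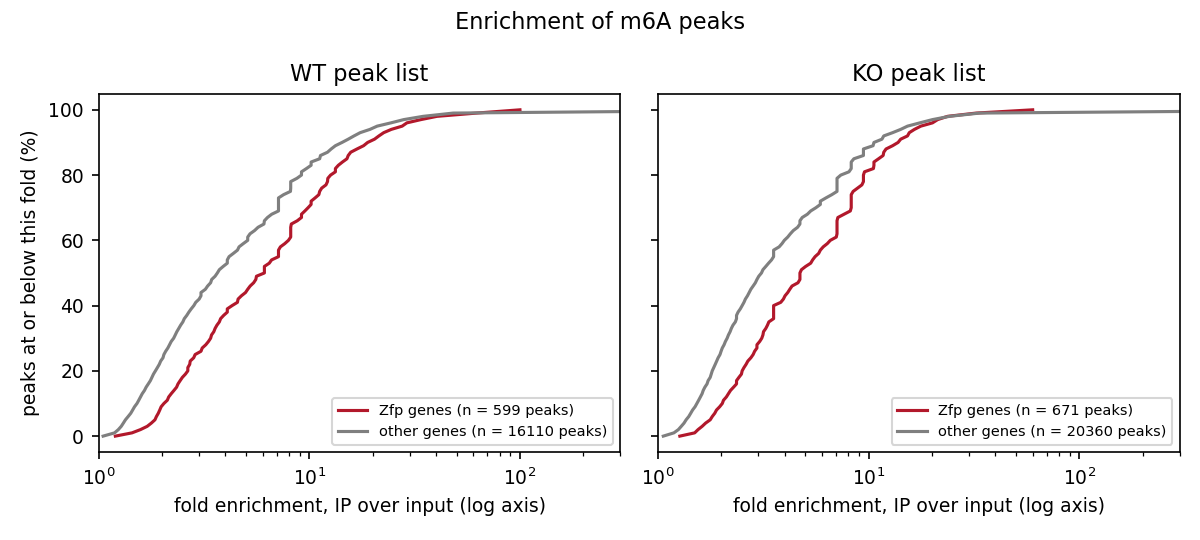
Cumulative share of peaks (vertical axis, percent) at or below a given fold enrichment of IP over input (horizontal axis, log scale), for Zfp genes in red and other genes in grey, in the WT list (left) and the KO list (right). The red curve lies to the right of the grey one over most of its length, with medians of 6.12 against 3.66 in WT and 4.72 against 3.10 in KO; the axis ends before the highest folds of other genes.

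The peaks recurred between genotypes. At an overlap of at least 1 exonic base, 440 of 599 Zfp peaks of the WT list (73.5%, 69.7 to 77.0) overlapped a KO peak, beside 73.4% of the whole WT list. In the other direction 73.8% of Zfp peaks of the KO list (70.3 to 77.1) overlapped a WT peak, beside 61.6% of the whole KO list. Zfp peaks of the WT list with a KO partner had a median fold of 7.55 and those without one 3.06. The order was the same over the whole WT list, at 4.08 and 2.92.

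Within transcripts, 330 of the WT peaks (55.1%, 51.0 to 59.1) were annotated to a 3′ UTR, 88 (14.7%) to a 5′ UTR and 181 (30.2%) to other exons. Other genes had 59.8%, 12.9% and 27.3%. The 3′ UTR peaks of Zfp genes had the highest median fold, 7.97, against 6.29 in 5′ UTRs and 3.50 in other exons; in other genes the 3 medians were closer, at 3.53, 4.08 and 3.74. The exon used differed from other genes: 107 of 181 Zfp exon peaks (59.1%, 51.6 to 66.4) lay in the last exon of a gene with several exons, against 19.7% of 4401 in other genes. In KO the shares were 53.8% (46.6 to 60.9) and 19.7%. A position in the first exon was noted for 12.2% of Zfp exon peaks in WT and 34.2% of others.

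The deposited files carry a KEGG annotation, and its herpes simplex virus 1 infection pathway is where KEGG places KRAB zinc finger genes; 153 of the 297 Zfp genes had it. All 76 differential Zfp peaks in this class that also had an orthology entry belonged to KEGG's KRAB group. Both labels come from KEGG, so this is no independent check of the class. The remaining 144 genes include KRAB genes without this annotation, such as Zfp445 and Zfp932, and may include others. WT peaks of the KRAB class (302 in 144 genes) had a median fold of 7.14 (5.61 to 8.16), and those of the remaining Zfp genes (297 in 129 genes) 5.35 (4.08 to 6.12). In the KO list the medians were 5.90 and 4.00.

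The Zfp genes with the most peaks included genes outside the KRAB class as well as members of it. Zfp469, whose human counterpart is mutated in brittle cornea syndrome, had 15 peaks in WT and 10 in KO. All but 2 of the 15 were annotated to its exon 2 of 2, and their folds ran from 2.30 to 19.4. Zfp704 followed with 8 WT and 4 KO peaks, Zfp738 with 7 and 6, and Zfp729a and Zfp719 each with 6 and 5. Overlapping calls, as in Zfp738, count as separate peaks here. Zfp106, Zfp462, Zfp748 and Zfp874b tied with Zfp729a and Zfp719 at 6 WT peaks, and the summed fold set the order. In KO, Zfp638, a splicing-linked factor that also takes part in silencing unintegrated retroviral DNA, had 7 peaks (5 in WT), as did Zfp874b (6 in WT) and Zfp407 (4 in WT), and Zfp523 had 6 (2 in WT), a count that 6 other Zfp genes shared. In all, 19 Zfp genes (6.96%) had 5 or more WT peaks, against 2.34% of all genes with a WT peak.

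The strongest WT peaks, among those with a peak p of at most 1e-10, were in Zfp768, Zfp964, Zfp503, Zfp451 and Zfp738. The Zfp768 peak, on chromosome 7 from 127344337 to 127345589 and annotated to its 5′ UTR, was 100-fold enriched in WT and 36-fold in KO. The 3′ UTR peak of Zfp964 had 95.9 and 41.3, and that of Zfp503, a regulator of striatal development, 90.7 and 60.1. Zfp451, a SUMO ligase, had a 3′ UTR peak of 88.3-fold in WT and 22.2-fold in KO. The strongest Zfp738 peak lay on chromosome 13 from 67658669 to 67667943 and had 63.3 and 8.27. They were chosen for their WT fold, so the KO folds beside them are a description only. A peak assigned to Zfp712 tied with Zfp738 at 63.3 in WT, with 9.45 in KO. Input levels are given in FPKM (fragments scaled to transcript length and sequencing depth). Zfp964 was barely detected, at 0.233 FPKM in WT and 0.202 in KO, so its folds rest on very little input. The WT and KO inputs were 4.61 and 6.42 for Zfp768, 2.71 and 2.31 for Zfp503, 1.66 and 1.70 for Zfp451, and 1.21 and 1.23 for Zfp738.

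The differential table asks which peaks differ in enrichment between KO and WT, and every peak in it has a p under 0.05; what was tested and left off the table is not known. Zfp peaks in it were mostly lower in KO. Of 178 Zfp peaks in 132 genes, 162 (91.0%, 85.8 to 94.8) had a log2 ratio of KO over WT below 0 in the authors' deposited table, beside 69.6% of all listed peaks. The other 16 were higher, beside 30.4%. The median log2 ratio of Zfp peaks in the authors' deposited table was -0.73 (-0.77 to -0.68), a ratio of 0.604, against -0.39 for peaks of other genes. By gene, 119 had lower peaks only, 10 higher peaks only, and 3 (Zfp142, Zfp771 and Zfp791) had both. Zfp peaks did not enter the table more often than others: 28.7% of WT Zfp peaks (25.1 to 32.5) overlapped a listed differential peak, against 32.3% for other genes.

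By FDR in the authors' deposited table, 140 of the 178 were under 0.05 (78.7%, beside 79.6% of the table), 133 of them lower (beside 57.0%) and 7 higher (beside 22.6%). A log2 ratio of -1 or lower was listed for 52 Zfp peaks (29.2%, beside 9.92%) in the authors' deposited table, and one of 1 or higher for 6 (beside 6.35%). Because the table as a whole leans to lower values, the count below its own median of -0.40 was taken as well: 143 of 178 (80.3%) in the authors' deposited table, beside 50.0%. A WT list peak overlapped 176 of the 178 and a KO list peak 168. Of the lower Zfp peaks, 10 had no KO peak and 93.8% had one, beside 92.7% of all lower peaks listed. Of the 16 higher Zfp peaks, 2 had no WT peak and 14 had one. Among all higher peaks listed, 1190 of 1838 had a WT peak. The list folds come from the same libraries as the ratio, and 1 long list peak can span several differential peaks of a gene, so they are printed below as descriptions.

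**Figure D2:**
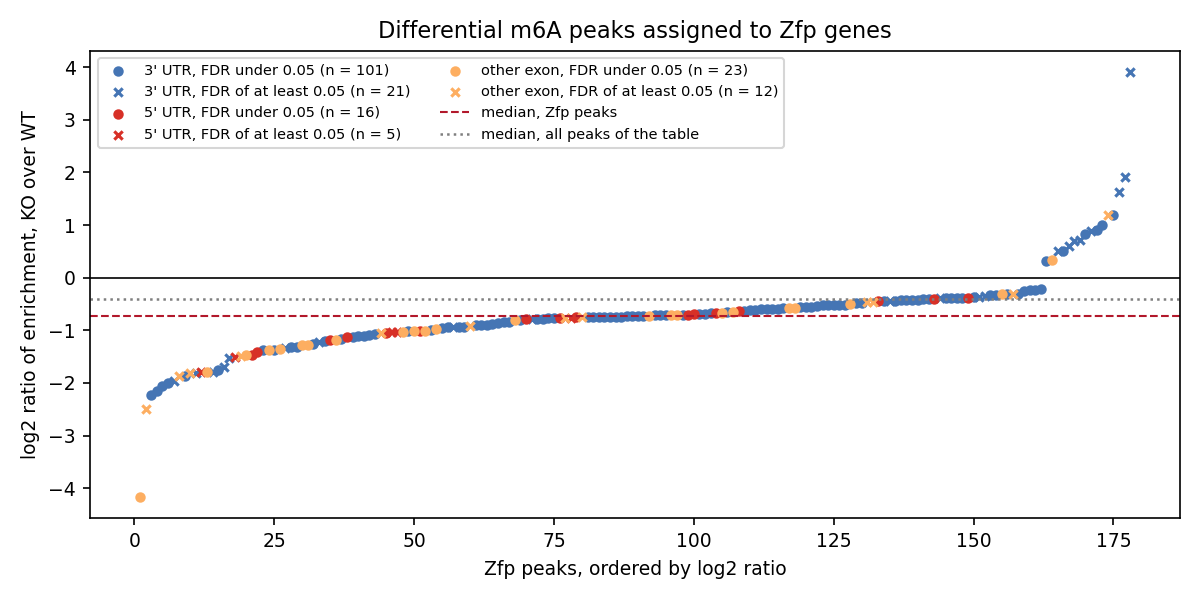
Log2 ratio of KO over WT enrichment (vertical axis) of the 178 differential Zfp peaks in rank order (horizontal axis), from the authors' deposited table. Colours give the annotated region, dots an FDR under 0.05 and crosses a larger one; 162 of the peaks lie below 0, and the median of all Zfp peaks is -0.73 (dashed), under the median of -0.40 of the whole table (dotted).

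Direction varied with peak length, and Zfp peaks are long. Differential Zfp peaks had a median of 958.5 exonic bases against 480 in other genes, and the lower ones were longer (median 1064.5) than the higher ones (343.5). In the authors' deposited table, 72.4% of the 29 Zfp peaks of up to 300 exonic bases were lower (52.8 to 87.3), against 30.1% of 2151 others. For lengths over 300 and up to 600 bases the authors' deposited table gave 86.7% (69.3 to 96.2) against 77.4%. Over 600 and up to 1200 bases it was 92.5% (81.8 to 97.9) against 97.2% in the authors' deposited table. Over 1200 bases all 66 Zfp peaks were lower, against 98.5% of others, in the authors' deposited table. The gap between Zfp and other peaks was widest in the shortest class, and among peaks over 600 bases both kinds were nearly all lower. Weighted to the classes of the Zfp peaks, other peaks were lower in 69.9% by region, 68.7% by peak p and 83.4% by length, all under the interval of the Zfp share (85.8 to 94.8), and in 87.1% by length and region together, inside it. What sets the direction was not tested.

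Input level was examined in the same way. Weighted to the Zfp peaks' classes of mean input level, other peaks were lower in 77.9%, to level and region in 78.1%, and to level and length in 85.9%, beside 90.9% of the 176 Zfp peaks with a listed level. Below 1 FPKM, 85.3% of 34 Zfp peaks were lower against 66.9% of others in the authors' deposited table, and from 5 to 10 FPKM 96.8% of 31 against 76.7%. The gap was smaller in the classes with most Zfp peaks, 93.3% of 45 against 83.9% from 1 to 2 FPKM and 88.9% of 54 against 82.6% from 2 to 5 FPKM, in the authors' deposited table. By region the authors' deposited table gave 88.5% of 122 3′ UTR peaks lower against 62.5%, all 21 5′ UTR peaks against 88.3%, and 94.3% of 35 other exon peaks against 84.9%.

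**Figure D3:**
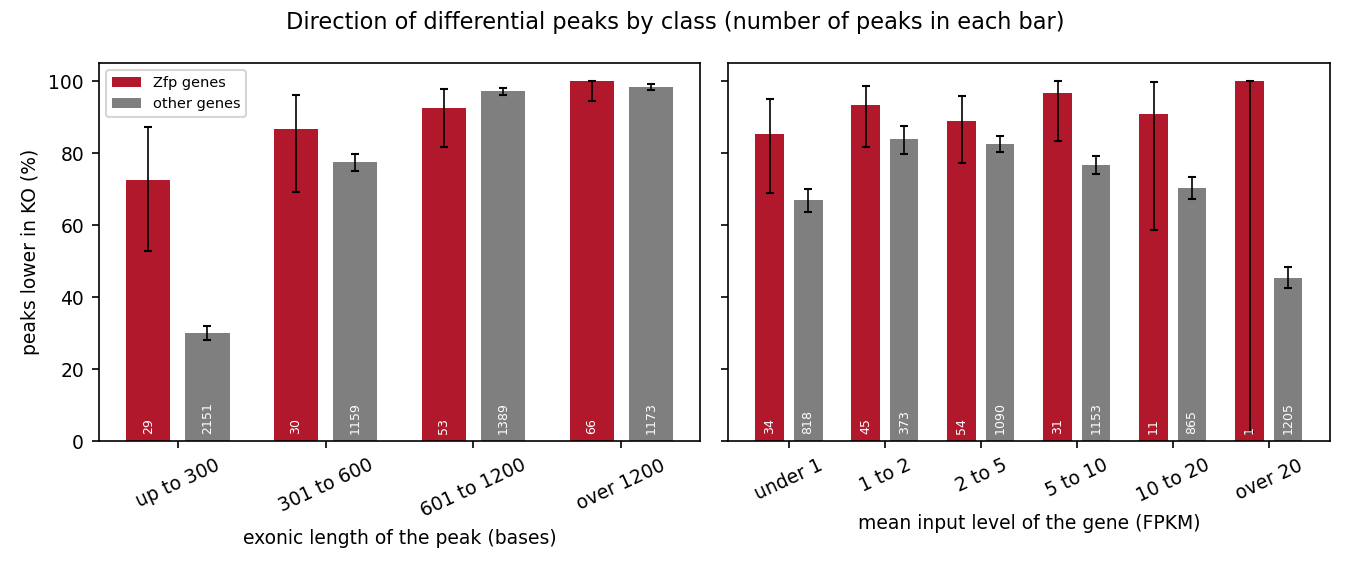
Share of differential peaks that were lower in KO (vertical axis, percent) by exonic length of the peak in bases (left) and by mean input level of the gene in FPKM (right), for Zfp genes (red) and other genes (grey). Bars start at 0, whiskers are exact 95% binomial intervals and the number in each bar is its count of peaks; above 600 bases both colours exceed 92%, while up to 300 bases they stand at 72.4% and 30.1%.

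The lowest ratios among peaks with an FDR under 0.05 and at least 1 FPKM in both inputs began with Zfp738. Its 3′ UTR-annotated peak on chromosome 13 from 67658715 to 67659074 had a log2 ratio of -2.06 in the authors' deposited table (FDR 0.00589). The overlapping list peaks were 59.2-fold in WT and 4.92-fold in KO. The input listed for Zfp738 was level, at 1.21 FPKM in WT and 1.23 in KO. The peak at -2.06 lies outside the RefSeq extent of Zfp738, so this input is not that of its region. Another 2 peaks assigned to the gene that overlap its extent had -1.35 and -0.73 in the authors' deposited table. The one at -1.35 starts within the outside peak, so only the one at -0.73 is apart from it.

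Zfp993 had -1.80 (FDR 0.0490) in the authors' deposited table, with folds of 14.3 in WT and 3.07 in KO and inputs of 2.63 and 1.95 FPKM. Zfp217, whose human counterpart is a transcriptional cofactor amplified in breast cancer, had -1.47 (FDR 3.80e-07) in its 5′ UTR in the authors' deposited table, with a KO fold of 2.31 under a WT peak of 7.98 that spans both of its differential peaks. Its longer 3′ UTR peak had -0.38, with a KO fold of 6.22, per the authors' deposited table, so 1 gene held both a large and a small difference. Inputs of Zfp217 were 8.20 FPKM in WT and 9.45 in KO.

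The next genes in order were Zfp513, Zfp472, Zfp758, Zfp87, Zfp629, Zfp146 and Zfp644, with log2 ratios from -1.42 to -1.18 in the authors' deposited table. Zfp472 had a single WT peak, of 18.3-fold, which spans 2 differential peaks: that at -1.38, with 3.54-fold in KO, and another at -0.45, with 12.4-fold in KO (the authors' deposited table). Zfp146 likewise had a single WT peak, of 13.3-fold, over its 5′ UTR difference (-1.18, no KO peak) and a 3′ UTR difference (-0.72, 11.6-fold in KO), per the authors' deposited table. The Zfp758 peaks were 19.0-fold in WT and 4.62-fold in KO. The peak assigned to Zfp87 lies outside that gene and over its neighbour Zfp748.

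In all, 6 genes met the same conditions in the other direction, all with 3′ UTR peaks. Zfp706, which limits self-renewal of embryonic stem cells, had 1.19 (FDR 0.000513) in the authors' deposited table at a peak of 150 exonic bases, with no WT peak and 3.11-fold in KO. Its inputs were 14.7 and 16.6 FPKM. Zfp771 had 1.0 in the authors' deposited table, with folds of 3.17 in WT and 5.39 in KO. The values of Zfp825 (0.83), Zfp729a (0.51) and Zfp422 (0.33) in the authors' deposited table went with folds of 8.98 and 11.0, 11.8 and 13.9, and 1.44 and 1.54. Zfp277 had 0.91 in the authors' deposited table, yet its overlapping list peaks ran the other way, 24.5 in WT and 8.27 in KO. The Zfp422 peak lies over the neighbouring gene Rassf4, so 5 of the 6 lie in the gene they are assigned to.

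**Figure D4:**
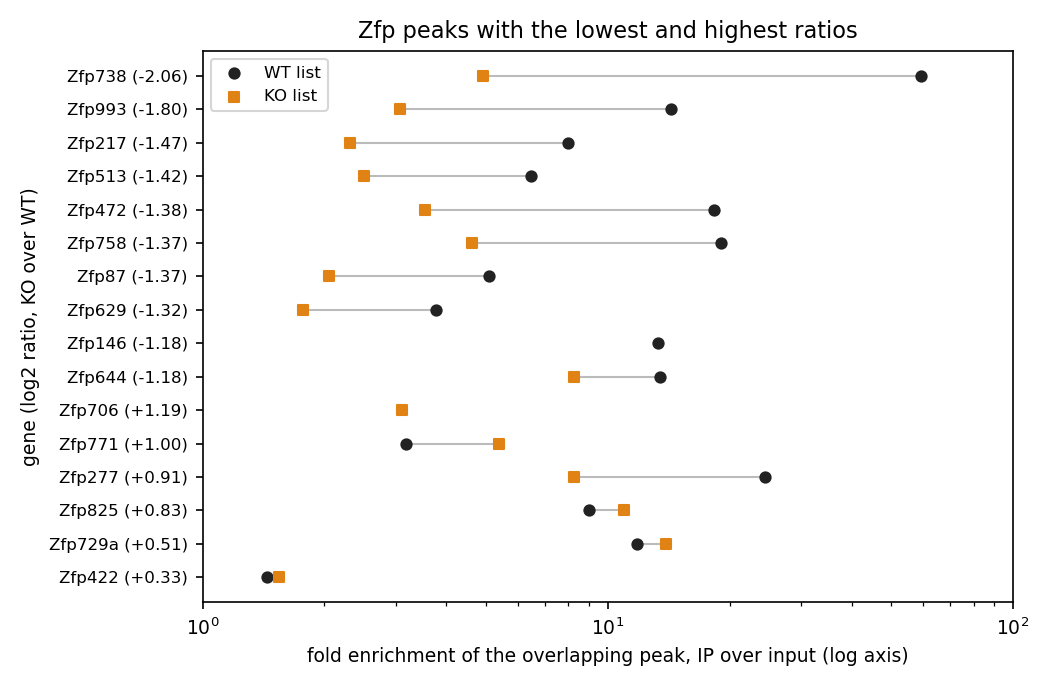
Fold enrichment of IP over input (horizontal axis, log scale) of the list peak that overlaps each named differential peak, WT as black dots and KO as orange squares, for the 10 Zfp genes with the lowest and the 6 with the highest log2 ratios (in brackets). The folds share libraries with the ratios that chose the genes and belong to whole list peaks; Zfp146 has no KO peak at its 5′ UTR difference, Zfp706 has no WT peak, and Zfp277 has the larger fold in WT despite a ratio above 0.

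Without the input and FDR conditions the ratios ranged from -4.16 in Zfp651 to 3.91 in Zfp458 in the authors' deposited table. Both genes were barely detected, Zfp651 at 0.0443 FPKM in WT and 0.0838 in KO, and Zfp458 at 0.312 and 0.392. The Zfp458 value had an FDR of 0.0631 in the authors' deposited table, rests on a peak of 91 exonic bases, and has no WT counterpart.

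The 3 genes with peaks in both directions follow. In Zfp771 the 5′ UTR (-0.64) and an exon (-1.01) were lower and the 3′ UTR peak (1.0) was higher in the authors' deposited table. Zfp142 had -0.61 (FDR 0.0117) over a long 3′ UTR peak of 1469 bases and 1.63 (FDR 0.0955) over a short one of 181 bases in the authors' deposited table. Zfp791 had -0.71 and 0.34 in the authors' deposited table, both in peaks of 300 bases outside the gene's RefSeq extent.

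By role, the largest group was the chromatin and transcription cofactors, 16 of 18 with a WT peak and 17 of 18 with a KO peak. All 17 of their differential peaks, spread over 11 genes, had ratios below 0 in the authors' deposited table (interval from 80.5%, beside 69.6% of the table and 91.0% of Zfp peaks), with a median log2 ratio of -0.76. An FDR under 0.05 was listed for 12 (70.6%, beside 79.6%) in the authors' deposited table. The authors' deposited table gave Zfp131 -0.93 and -0.84 at 3′ UTR peaks. Zfp644, a partner of the histone methyltransferases G9a and GLP, had peaks with -1.51, -1.18 and -0.91, per the authors' deposited table, the middle one with an FDR under 0.05. Zfp687 and Zfp592, which bind each other in a complex with Zmynd8, had -0.70 and -0.32 in the authors' deposited table. The Zfp143 value of -0.55 in the authors' deposited table belongs to a peak over the neighbouring gene Ipo7. Input levels of the 11 genes were low, with a median of 2.74 FPKM in WT and 3.13 in KO.

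Among 6 KRAB genes with known silencing or imprinting targets, 4 had peaks in both lists (Zfp445, Zfp568, Zfp708 and Zfp932), and Zfp57 and Zfp809 had none. Zfp445 and Zfp932 lack the KEGG annotation, so comparisons by class count them among the remaining Zfp genes. Zfp445, which helps maintain genomic imprints, had -0.90 (FDR 1.20e-07) in its 3′ UTR and -0.77 (FDR 1.38e-05) in its 5′ UTR in the authors' deposited table. The folds were 6.51 in WT and 1.96 in KO at the first and 11.2 and 3.41 at the second, at inputs of 8.21 and 8.80 FPKM. Zfp708, which binds a retrotransposon class, had -1.81 and -1.69, per the authors' deposited table, at 2 peaks that overlap each other, neither with an FDR under 0.05.

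Of 9 genes with roles in RNA processing, translation or mitosis, 6 had WT and 7 had KO peaks, and 5 of 5 differential peaks were lower with an FDR under 0.05 in the authors' deposited table, beside 57.0% of it; with an interval from 47.8%, the count does not set the group apart. Zfp638 had -1.05 (FDR 3.98e-12) at its 5′ UTR in the authors' deposited table, with folds of 27.1 in WT and 6.50 in KO. Zfp326, part of a complex that couples splicing to transcription, had -1.16 in the authors' deposited table and no KO peak there. Zfp830 had -0.53 in the authors' deposited table, and of the Zfp622 peaks, that at -0.65 lies over the neighbouring gene Retreg1 and that at -0.38 in Zfp622, which acts in ribosome assembly.

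Of 11 immune and differentiation regulators, 6 had WT and 8 had KO peaks, and 4 of 4 differential peaks were lower with an FDR under 0.05 in the authors' deposited table, again beside 57.0%, with an interval from 39.8%, too few to set the group apart. Zfp318, needed for IgD splicing in B cells, had -0.78 and -0.57, and Zfp710 -0.40, in the authors' deposited table. Zfp91, an E3 ubiquitin ligase of the noncanonical NF-kB pathway, had -0.21 in the authors' deposited table, while its list folds were 7.12 in WT and 10.3 in KO. Zfp366, Zfp395 and Zfp598, the last from the RNA group and a sensor of collided ribosomes, had peaks in the KO list only. Of the 3 pluripotency genes, Zfp42 had no peak, Zfp322a had -0.60 and Zfp706 the value of 1.19 given above in the authors' deposited table.

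The co-repressor pathway that KRAB proteins recruit was listed by 24 names, of which Tasor and Fam208a are 1 gene. It had WT peaks in 17 and KO peaks in 19, and the authors' deposited table has 14 differential peaks, 11 of them lower (78.6%, 49.2 to 95.3, beside 69.6% of the table) and 3 higher. Trim28 had no WT peak and 1 KO peak, of 2.08-fold, and Setdb1 had 1 and 2. Daxx, a histone chaperone, had -1.28 and -0.67, and Tasor, a subunit of the HUSH silencing complex, -1.09 and -0.61 in the authors' deposited table. The 3 higher peaks were in Chd3 (0.52), Chd4 (0.41) and Dnmt1 (0.46), all with an FDR under 0.05 in the authors' deposited table. The pathway had a median WT fold of 2.27.

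Other zinc finger families were close to the Zfp genes. Zbtb genes, which join zinc fingers to a BTB domain, had a median fold of 7.14 in WT and 4.87 in KO and 26 of 28 differential peaks lower (92.9%, 76.5 to 99.1), with a median of -0.57 in the authors' deposited table. Zkscan and Zscan genes, which join fingers to a SCAN domain, had medians of 6.63 and 4.65 and 9 of 9 lower, with a median of -0.71 in the authors' deposited table. In the KRAB class of Zfp genes 73 of 81 were lower (90.1%, 81.5 to 95.6), and in the remaining ones 89 of 97 (91.8%, 84.4 to 96.4), with medians of -0.74 and -0.70 in the authors' deposited table. The intervals of these 2 shares overlap, as do those of the Zbtb and Zfp shares.

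Many Zfp genes sit close together in clusters. The sources used here do not say how reads that match more than 1 gene were assigned, so values in clusters are uncertain between neighbours. Of the Zfp genes in RefSeq, 92 lie on chromosome 7, which held 43 differential peaks, 41 of them lower (95.3%, 84.2 to 99.4) against 63.2% of the peaks of other genes there, in the authors' deposited table. On chromosome 13 there was no such gap: 78.3% of 23 Zfp peaks (56.3 to 92.5) were lower, against 77.0% of 200 others there, in the authors' deposited table. The cluster with the most genes lies on chromosome 13 from 66670274 to 67827000 (24 genes within 500 kb of a neighbour). It held 18 differential peaks in the authors' deposited table, 14 lower and 4 higher (beside 69.6% lower in the whole table), their median being -1.23. A cluster on chromosome 17 from 21008941 to 23599755 (23 genes) had 8 of 8 lower, and one on chromosome 7 from 29768552 to 30169775 (15 genes) 8 of 8, in the authors' deposited table. In all, 17 Zfp differential peaks lay outside the RefSeq extent of the assigned gene, 13 of them over another protein-coding gene. Examples are the 2 peaks assigned to Zfp712 over Zfp708, and 1 each assigned to Zfp82 over Zfp566 and to Zfp874b over Zfp58.

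Input levels were listed only for genes with a differential peak, 131 Zfp genes in all. Their median was 2.10 FPKM in WT and 2.34 in KO, against 5.88 in WT over all listed genes, and 106 of the 131 were under 5 FPKM in WT. The highest was Zfp710, with 18.7 and 22.3. For 104 of them the mean of both inputs reached 1 FPKM, and there the median difference in log2(FPKM + 1), KO minus WT, was 0.11 (0.06 to 0.15), against 0.07 over all 3679 such genes. It was above 0 in 84 (80.8%, beside 69.0%). None differed by 1.5-fold on this scale, beside 1.22% of all genes higher and 0.788% lower. The smallest input p of a Zfp gene in the authors' deposited table was 0.228, so no Zfp gene was under 0.05 there, and the authors' adjusted values were all 1.

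The largest increases were in Zfp109 (0.833 FPKM in WT, 1.54 in KO), Zfp768 (4.61 and 6.42), Zfp472 (1.84 and 2.72), Zfp563 (0.799 and 1.34) and Zfp839 (3.66 and 5.02). Their differential peaks were all below 0, beside 91.0% of Zfp peaks, for example -1.47 and -0.84 in Zfp109 and -0.95 in Zfp563 in the authors' deposited table. The largest decreases were in Zfp993 (2.63 and 1.95), Zfp704 (7.42 and 6.37), Zfp503 (2.71 and 2.31), Zfp142 (1.56 and 1.30) and Zfp868 (2.68 and 2.49). Zfp993, with the largest of these decreases, also had one of the lowest ratios, given above.

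**Figure D5:**
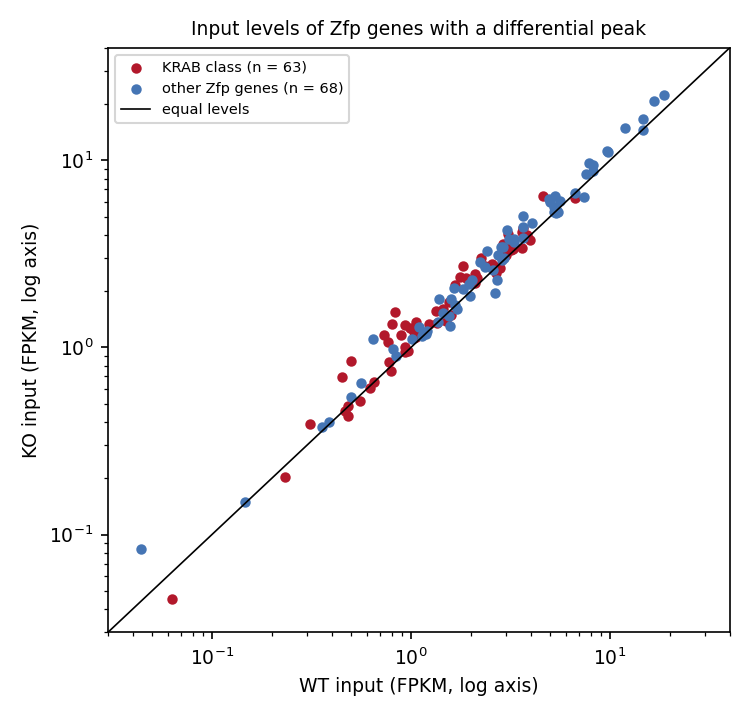
Input level in KO (vertical axis) against WT (horizontal axis), both in FPKM on log axes, for the 131 Zfp genes with a listed level, 63 in the KRAB class (red) and 68 others (blue), 1 library per genotype. The black line marks equal levels; the points follow it from below 0.1 to about 20 FPKM, with 103 of 131 above it.

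Of 10 macrophage markers, 6 had a listed level, from 40.6 to 10533 FPKM in WT and from 58.4 to 6615 in KO, so the cells expressed genes that define macrophages. Of 28 markers of other cell types, 3 were listed: the neutrophil genes S100a8 and S100a9, with a summed level of 233 FPKM in WT and 137 in KO, and the B cell gene Cd79b at 1.12 and 0.734. Markers without a differential peak have no level here, and the part of other cells in the Zfp differences was not tested. Fewer cells of a type and less RNA per cell cannot be told apart in such bulk samples.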

How the data were processed

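Sample titles gave the groups. Tools in the submitters' processing notes, listed without roles, are edgeR, StringTie, ChIPseeker, HOMER, HISAT2 and fastp, and the build is mm10; which of them called peaks was not given in the sources used here. Per the file headers, the authors deposited, for each genotype, peaks with a fold (the IP to input ratio), a p-value and an FDR as a log10 score, from 1 library pair and with nothing pooled. A further deposited table gives the log2 value of KO against WT enrichment with its p-value, for peaks with a p under 0.05, and the FPKM of each gene's inputs. These comparison values are the authors' own.

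Exonic blocks of peaks were intersected with bedtools 2.31.1 (at least 1 base, strand ignored). A differential peak was paired with the list peak sharing the most bases. Shares have exact (Clopper-Pearson) intervals and medians order-statistic intervals, both at 95%. Input differences are log2(FPKM + 1), which understates those of low genes. Weighted shares average the other peaks' shares over the classes of Zfp peaks and were added after the data were seen. Deposited starts count from 0, and 1 was added. RefSeq extents of the same build served to check the assigned gene, and 295 of 297 symbols were found. The functions were tested on simulated data. The work ran in Python 3.11.15 with matplotlib 3.10.9, scipy 1.17.1, pandas 2.3.3 and numpy 2.4.6.

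The members and lists were chosen with earlier results of these data known. The rule for named genes took the 10 lowest and 10 highest log2 ratios (FDR under 0.05, at least 1 FPKM in both inputs, 1 per gene; 6 qualified as highest), the 5 genes with the most peaks in each list, the 5 WT peaks with the largest fold at p of at most 1e-10, the 5 largest input increases and decreases, members of the role lists with a differential peak, and genes with peaks in both directions. Examples beyond it were chosen after their values were seen. A class by encoded fingers and KRAB box, and DRACH motifs in peaks, were planned; no protein table or genome was used here, so the KEGG annotation and GGAC at transcript starts replaced them. Alternatives were stricter filters, reciprocal overlap of 50%, centring, another pseudocount, 1 value per gene and, added after seeing the data, 1 value per locus.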

Additional observations from a re-analysis of the deposited data

How the results depend on the processing

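No paired analysis was possible because each group had 1 library and no result comes from a test; no library could be left out. No median changed sign under its alternatives, while counts and shares were not scored for direction. Of 61 alternatives in all, 35 stayed within counting error or 1.5 times and 26 moved further. WT Zfp peaks numbered 376 at a fold of at least 4 and 185 at p of at most 1e-10. KO ones numbered 383 and 147, and 414 at an FDR under 0.05. Under those 3 filters, in the order fold, p and FDR, the 3′ UTR share was 64.1%, 70.8% and 60.8% in WT and 61.9%, 73.5% and 61.6% in KO. The share in other exons was 21%, 13.5% and 24.3% in WT, and 25.1% and 12.2% in KO by fold and p. The share of WT Zfp peaks overlapping a KO peak was 77.8% at an FDR under 0.05 in both lists and 47.7% at 50% reciprocal overlap (52.2% over all WT peaks). The share of Zfp differential peaks lower in the authors' deposited table was 98.7% (74 of 75) at p under 0.001, 95.0% at an FDR under 0.05 and 80.3% after subtracting the table median. The median log2 ratio in the authors' deposited table was -1.30 at an absolute ratio of at least 1 and -0.32 after subtracting the table median. The median input difference was 0.15 with a pseudocount of 0.1, where 2 genes were at least 1.5-fold higher, and 0.038 after subtracting the median of all genes, an interval (-0.01 to 0.08) that spans 0. What depth limits could not be examined without read totals.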
